A study of Zea mays with 6 samples.

Results

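The enzymes that build and take apart starch were followed in maize roots through 14 probe sets of an expression array, out of 12255 in the authors' filtered table. The search took the probe set of AGP2, an ADP-glucose pyrophosphorylase, together with every probe set carrying the symbol sh2, bt2, wx1, su1 or ae1. It also took each probe set whose title or target description names ADP-glucose pyrophosphorylase, starch synthase, starch branching enzyme, isoamylase, pullulanase or amylase. Of the 14, 1 came from AGP2 itself, 1 from a symbol (su1) and 12 from a title or target description, and they stand for 12 genes or transcript clusters. AGP2 was chosen by its measured signal, for its difference between the groups compared here, and the others were proposed with results of that comparison known, so their differences are given as a description and not as a test.

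The maize (cultivar Nongda108) was grown in a greenhouse on calcareous sandy soil with added fertilizer and sampled at the reproductive stage. In the intercropped group it shared the soil with peanut (cultivar Luhua14), and in the monocropped group it grew alone. Each group has 3 samples of root RNA, and each sample was hybridised to its own Affymetrix maize genome array of 17734 probe sets, which are groups of short probes against a transcript. Separate plants or pots are not stated for the 3 samples of a group, so every error and p given here covers the spread among these samples and may be a technical one.

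Starch is a store of glucose held in plastids, in leaves by day and in storage organs and root caps for longer. ADP-glucose pyrophosphorylase makes the sugar nucleotide ADP-glucose, starch synthases add its glucose to growing chains, branching enzymes put in the branch points, and debranching enzymes trim misplaced branches so that the granule can form. In the root cap, starch-filled plastids settle with gravity and take part in its perception, and amylases return stored starch to sugar.

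Median signal lay between 134 and 142 on the 6 arrays, and 13116 probe sets had a signal of at least 50 on at least 3 arrays and were tested. No probe set passed an adjusted p of 0.05 in limma, which is 0% of those tested, and 1457 had an unadjusted p under 0.05. The lowest adjusted p on the array was 0.129. Of 11 root marker probe sets 9 were tested, among them yellow stripe1 (ys1), the iron-phytosiderophore transporter, at 121 to 227 across the arrays. Root cap protein 1 was at 320 to 789. The root probe sets not tested were of nas1, a nicotianamine synthase, with a highest signal of 59.3. Of the 3 embryo probe sets (globulins and oleosins) none reached the level needed for testing, and their highest signal was 54.4. Probe sets titled as endosperm storage proteins or their regulators reached 2566, however, with 15 of 16 tested, and those of green tissue reached 402. Whether a lower signal in such whole-root RNA means fewer cells of a type or less RNA per cell cannot be told apart.

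All 14 starch probe sets had a higher mean log2 signal in intercropped roots, where 51.9% of all tested probe sets did. Their median log2 difference (intercropped minus monocropped) was 0.45, beside 0.01 over all tested. In 9 of the 14, every intercropped array lay above every monocropped array, and 8.29% of all tested probe sets showed this. None of the 14 was called by limma, and 8 had an unadjusted p under 0.05 in the higher direction, as 5.6% of all tested probe sets did. The choice of AGP2 used this contrast, and 1 member reached 50 on the intercropped arrays alone, so nothing is read from these shares.

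**Figure D1:**
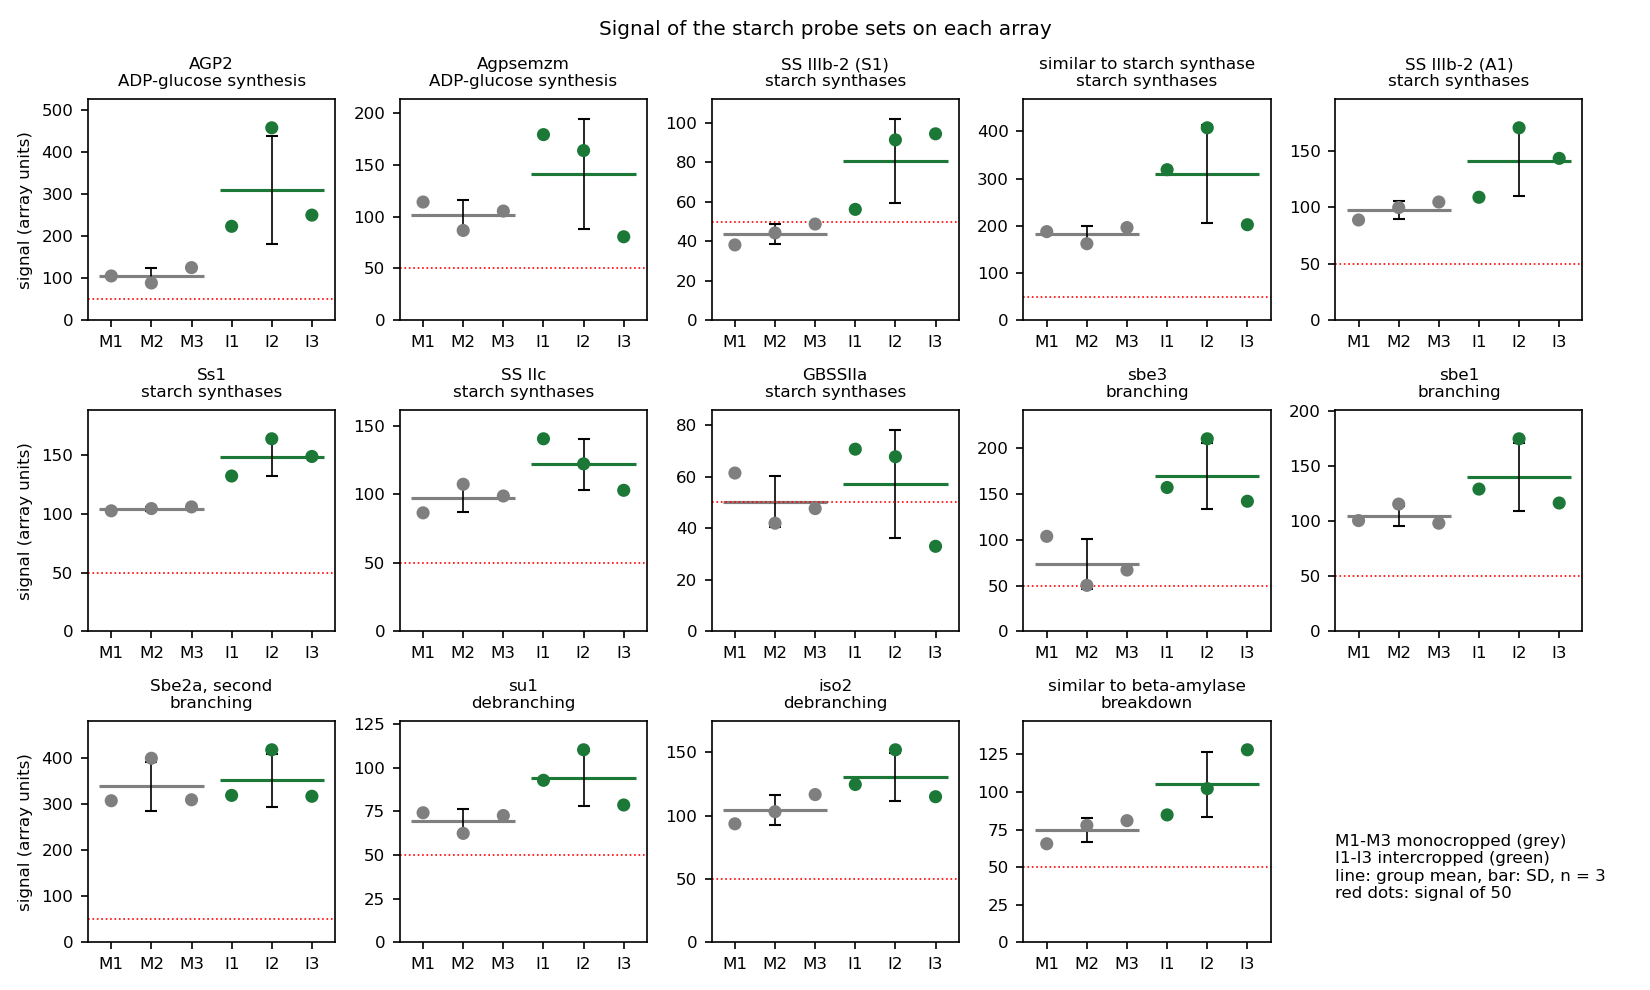
Signal (array units, linear axis from 0) of each of the 14 starch probe sets on the 3 monocropped (grey, M1 to M3) and 3 intercropped (green, I1 to I3) arrays. Lines are group means, bars the SD over 3 arrays, and the dotted line marks a signal of 50; the AGP2 panel shows intercropped array 2 at 459, far above the other 5.

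The largest log2 difference was in the enzyme that starts the pathway. AGP2 had a signal of 224, 459 and 251 on intercropped arrays 1, 2 and 3, and of 106, 89.1 and 126 on monocropped arrays 1, 2 and 3. All intercropped arrays were above all monocropped ones, and intercropped array 2 stood highest by a wide margin. The mean was 311 ± 128 (SD, n = 3) against 107 ± 18.3 (SD, n = 3), a log2 difference of 1.48 with a standard error of 0.29, or 2.79-fold. Without intercropped array 2 the log2 difference was 1.16, and without intercropped array 1 it was 1.68. The authors' deposited table gives AGP2 the same log2 difference, a fold change of 2.91 and a q-value of 11.1%. Their fold change is the ratio of the linear means, while 2.79 comes from the means of log2 signal.

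The identity of this probe set has a limit. Its annotation assigns 15 probes to an unnamed maize mRNA and 9 probes to the reference transcript of the ADP-glucose pyrophosphorylase gene LOC542737, so not all probes are known to report that transcript. The reference gene table lists AGP2 as a synonym of LOC542737, and Agp2, in other letter case, as a synonym of a second gene, Agpsemzm.

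Agpsemzm encodes a small subunit of ADP-glucose pyrophosphorylase. Its signal was 179, 164 and 80.6 on the intercropped arrays, and 114, 86.7 and 105 on the monocropped arrays. Intercropped arrays 1 and 2 were the highest of the 6 and intercropped array 3 the lowest, so the groups overlapped. The log2 difference was 0.39 with a standard error of 0.31, and it ran from 0.18 without intercropped array 1 to 0.76 without intercropped array 3.

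Starch synthases made up 6 of the 14 probe sets, and the groups did not overlap in 4 of them, where 8.29% of all tested probe sets had all intercropped arrays above. The 4 include both probe sets of the gene SSIIIb-2, and 1 of these reached 50 on the intercropped arrays alone. Nothing is therefore read from this count. Ss1 encodes starch synthase I, which in cereals extends short chains. Its signal was 132, 164 and 149 on the intercropped arrays and 103, 105 and 106 on the monocropped arrays. The monocropped arrays lay close together, and every intercropped array was above them. The log2 difference was 0.50 with a standard error of 0.14, which is the smallest standard error among the 14.

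The gene SSIIIb-2, a starch synthase of class III, was covered by a pair of probe sets, named S1 and A1 after the suffix of their identifiers. Both were designed from the same sequence, and which strand each reports was not settled, so either may not measure the SSIIIb-2 mRNA. The S1 probe set had a signal of 56.3, 91.5 and 94.5 on the intercropped arrays and 38.2, 44.3 and 48.8 on the monocropped arrays. It reached 50 on the 3 intercropped arrays alone, so it entered the authors' table through the group in which it was higher. Its log2 difference was 0.85 with a standard error of 0.24.

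The A1 probe set of SSIIIb-2 had a signal of 109, 170.5 and 143 on the intercropped arrays, and 88.9, 99.9 and 105 on the monocropped arrays. The groups again did not overlap, by a small gap, and the log2 difference was 0.51 with a standard error of 0.19. For A1 the annotation lists 5 probes as cross-hybridising matches to the reference transcript and assigns no transcript outright. For S1 neither an assigned transcript nor a cross-hybridising match was found in the annotation. Both SSIIIb-2 probe sets carry the lowest annotation grade found among the 14, grade E, which 4 of the 14 have. The others with grade E are GBSSIIa and the probe set similar to a beta-amylase.

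A further probe set is described only as similar to a starch synthase, and all its 15 probes are assigned to a maize mRNA for a putative granule-bound starch synthase IIb. Its signal was 319, 408 and 203 on the intercropped arrays and 188, 162 and 197 on the monocropped arrays. Intercropped array 3 was only just above monocropped array 3, while the other intercropped arrays were well above. The log2 difference was 0.71, 0.48 without intercropped array 2 and 0.99 without intercropped array 3.

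The groups overlapped for SSIIc, a class II starch synthase, and for GBSSIIa, a granule-bound starch synthase of the kind that makes amylose. SSIIc had a signal of 141, 122 and 103 on the intercropped arrays and 86.5, 107 and 98.8 on the monocropped arrays, a log2 difference of 0.32 with a standard error of 0.17, or 0.21 without intercropped array 1. GBSSIIa had a signal of 70.7, 67.7 and 33.0 on the intercropped arrays and 61.4, 41.9 and 47.6 on the monocropped arrays. For GBSSIIa the annotation lists 4 probes as cross-hybridising matches to a reference transcript and assigns no transcript outright. Intercropped array 3 was the lowest of all for GBSSIIa, and the log2 difference of 0.12 was well within its standard error of 0.32 and was -0.07 without intercropped array 1.

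**Figure D2:**
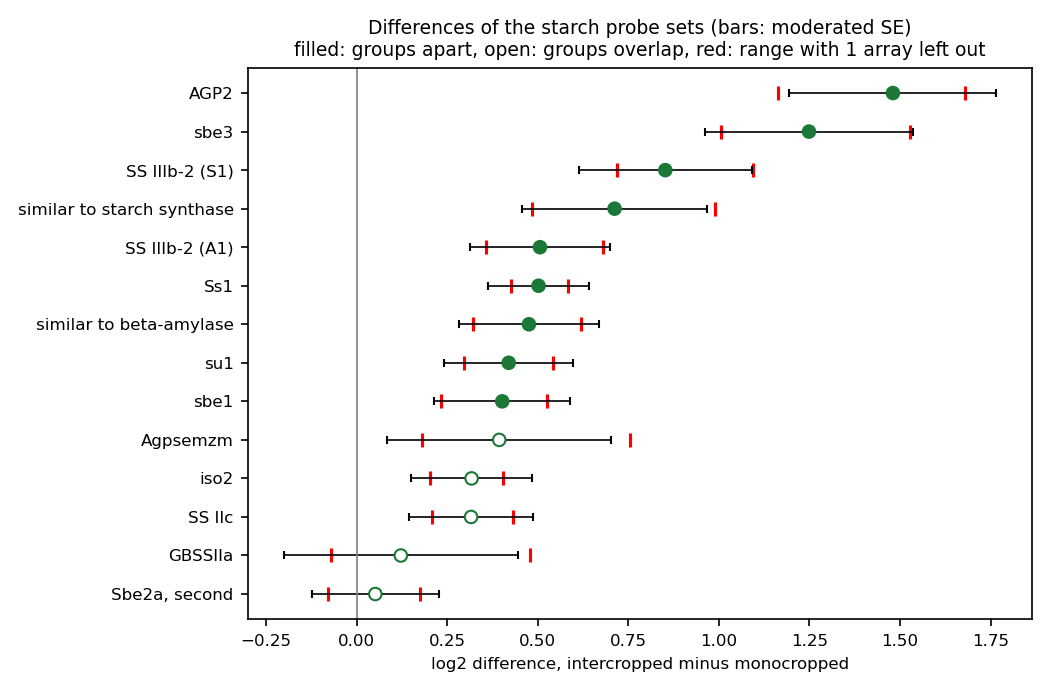
Log2 difference (intercropped minus monocropped) of each starch probe set, with the moderated standard error as bars and the lowest and highest value after leaving out 1 array as red ticks. Filled points have groups that do not overlap. AGP2 lies at 1.48 and the second probe set of the Sbe2a transcript cluster (labelled Sbe2a, second) at 0.05. The red ticks cross 0 for GBSSIIa and for that second probe set, which is not assigned to the Sbe2a mRNA.

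Among the branching enzymes, the probe set with the symbol sbe3 is assigned to the mRNA of starch branching enzyme IIa (Sbe2a). Its signal was 157, 210.4 and 142 on the intercropped arrays and 104, 50.3 and 67.1 on the monocropped arrays. Every intercropped array was above every monocropped array, with the lowest signal on monocropped array 2. The log2 difference was 1.25 with a standard error of 0.29, or 2.38-fold, and it stayed between 1.01 and 1.53 when any 1 array was left out.

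A second probe set from the same transcript cluster gave another picture. It had a signal of 319, 417 and 317 on the intercropped arrays and 307, 399 and 309 on the monocropped arrays. In both groups array 2 was the highest, the groups overlapped, and the log2 difference was 0.05. The annotation assigns 14 and 10 of its probes to a pair of unnamed maize clones, lists cross-hybridising matches to others, and gives it no gene ID. It is not assigned to the Sbe2a mRNA, so that the 2 probe sets report the same gene is not shown. Starch branching enzyme I (sbe1) had a signal of 129, 175 and 117 on the intercropped arrays and 101, 116 and 98.4 on the monocropped arrays. The lowest intercropped array for sbe1 exceeded the highest monocropped array by 0.975 signal units. The log2 difference was 0.40 with a standard error of 0.19, and 0.23 without intercropped array 2.

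The debranching enzymes were represented by su1 (sugary1), the isoamylase whose loss gives sugary kernels, and by iso2, its partner isoamylase. For su1 the signal was 92.7, 110.1 and 78.6 on the intercropped arrays and 74.1, 62.4 and 72.6 on the monocropped arrays. The groups did not overlap, although intercropped array 3 was close to monocropped array 1, and the log2 difference was 0.42 with a standard error of 0.18. For iso2 the signal was 125, 152 and 115 on the intercropped arrays and 93.5, 103 and 117 on the monocropped arrays. Monocropped array 3 was above intercropped array 3, so the groups overlapped, and the log2 difference was 0.32, or 0.20 without intercropped array 2.

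Breakdown was represented by 1 probe set, described as moderately similar to a beta-amylase, an enzyme that releases maltose from starch chains. Its signal was 84.7, 102 and 128 on the intercropped arrays and 65.6, 77.8 and 80.9 on the monocropped arrays. All intercropped arrays were above the monocropped ones, with intercropped array 3 highest, and the log2 difference was 0.48 with a standard error of 0.19.

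Across the list, intercropped array 2 carried the highest signal for 9 of the 14 probe sets, and 23.7% of all tested probe sets were highest on that array. Among the intercropped arrays alone, array 2 was the highest for the same 9 members and for 33.6% of all tested probe sets. Centred on each probe set's mean over the 6 arrays, the median log2 value of the 14 was 0.16, 0.47 and -0.02 on intercropped arrays 1, 2 and 3. On monocropped arrays 1, 2 and 3 it was -0.29, -0.28 and -0.15. Intercropped array 3 thus lay closer to the monocropped arrays than did intercropped array 2. When intercropped array 2 was left out, 12 of the 14 were still higher in intercropped roots and their median log2 difference was 0.33.

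**Figure D3:**
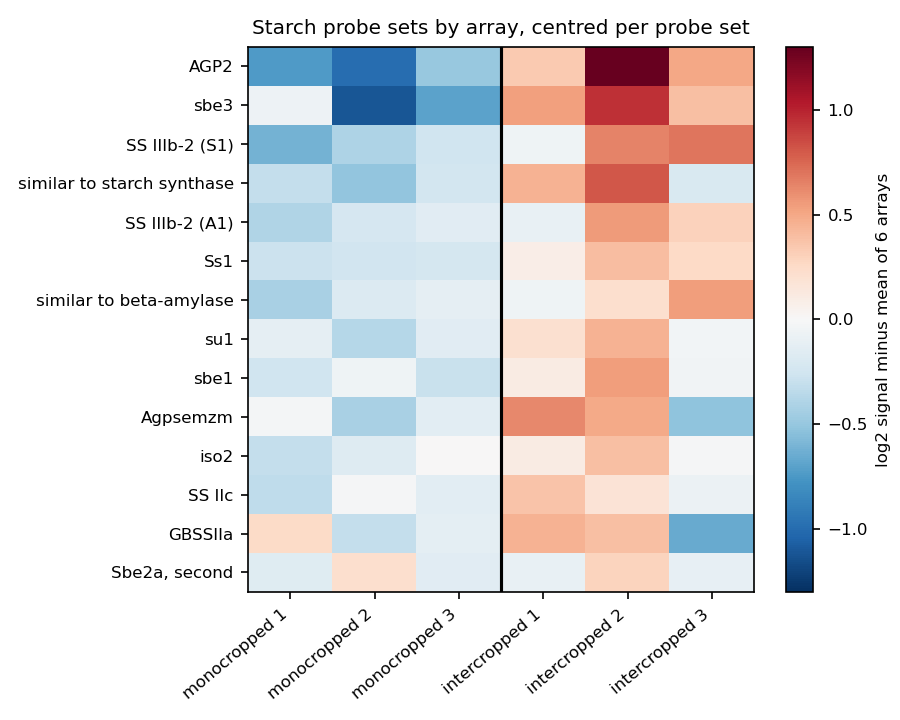
Log2 signal of each starch probe set (rows, ordered by difference) on each array (columns), minus its mean over the 6 arrays, with red above and blue below the mean. The column of intercropped array 2 is red in all rows, while intercropped array 3 is below the mean in 8 of 14 rows, most clearly for Agpsemzm and GBSSIIa.

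The best-known starch genes of the maize kernel were not among the 14. Of the 6 symbols named by the search, 4 (sh2, bt2, wx1 and ae1) had no probe set in the authors' table. sh2 and bt2 encode the large and small subunits of the endosperm ADP-glucose pyrophosphorylase, wx1 the granule-bound starch synthase of the endosperm, and ae1 branching enzyme IIb. Through the synonyms of the reference gene table, 6 probe sets for these genes were found on the array, with signals from 3.38 to 45.7. None reached 50 on any array. In the fit without a signal filter, their log2 differences were -0.32 and 0.15 for sh2, and 0.53 for bt2. They were -0.28 for wx1, and 0.06 and -0.16 for ae1. The groups overlapped for all but bt2. The synonym ae1 is listed for a pair of gene IDs, and the gene also listed as a branching enzyme was used.

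Looking up other starch genes by name, after the tables had been opened, brought the number outside the authors' table to 11 probe sets of 9 genes. None was tested, and the groups did not overlap in 3, in each of which the intercropped arrays were above, as in 3.76% of the 4439 probe sets that were not tested. The gene agpsl1, for a leaf small subunit of ADP-glucose pyrophosphorylase, had a signal of 66.1, 58.9 and 47.6 on the intercropped arrays and 32.4, 37.9 and 31.6 on the monocropped arrays. For bt2 the signal was 32.7, 33.8 and 29.2 against 26.2, 21.7 and 18.9. For zpu1, a pullulanase-type debranching enzyme, it was 44.6, 47.8 and 29.9 against 27.6, 27.8 and 29.6, with intercropped array 3 barely above.

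Every probe set in the authors' table had a signal of at least 50 on at least 3 arrays. A further 864 tested probe sets reached this level and are not in that table, so the level alone does not set it. Just meeting the level were GBSSIIa and the S1 probe set of SSIIIb-2, each at 50 or more on 3 arrays. Just short of the level were agpsl1 and the isoamylase gene iso3 with 2 arrays each, both intercropped, and the starch synthase III gene du1 with 1 monocropped array. The signal of iso3 was 54.3, 64.3 and 33.2 on the intercropped and 27.5, 28.0 and 34.3 on the monocropped arrays, and that of du1 was 29.6, 41.2 and 40.2 against 51.1, 36.5 and 38.0. Both had groups that overlapped.

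**Figure D4:**
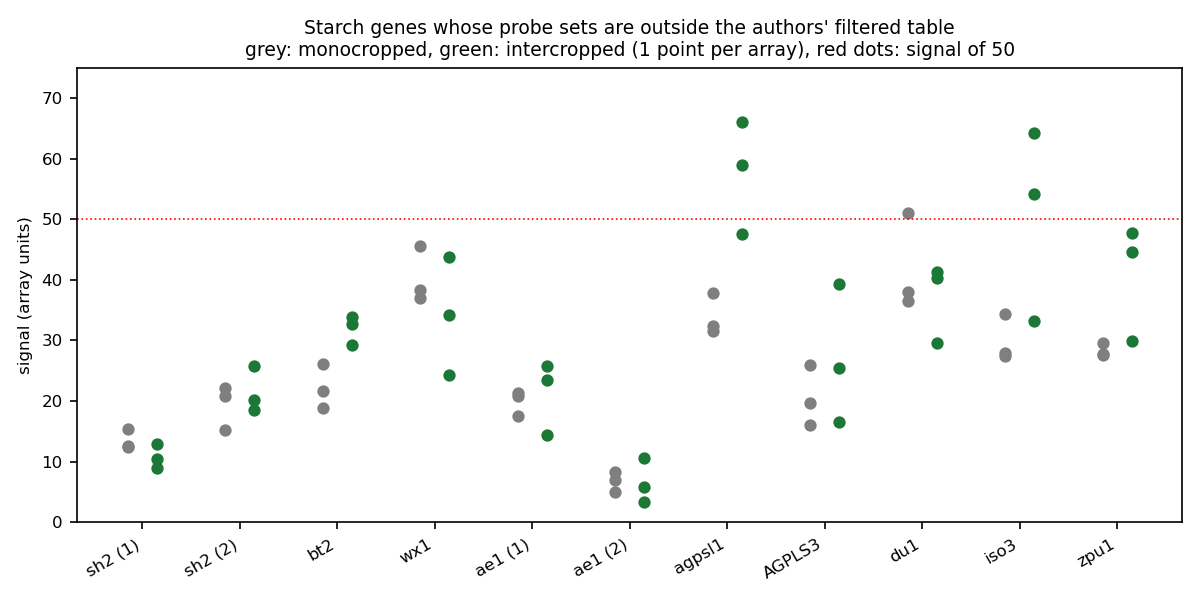
Signal (array units) of the 11 starch probe sets outside the authors' table, with 3 monocropped arrays in grey and 3 intercropped arrays in green; numbers in brackets tell probe sets of the same gene apart. The dotted line marks 50, and only agpsl1, iso3 and du1 have an array above it.

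The supply of hexose phosphate, the starting material of ADP-glucose, was described through 22 tested probe sets of sucrose synthases, hexokinases, fructokinases and phosphoglucomutases. Of these, 12 were higher and 10 lower in intercropped roots, none was called, and the median log2 difference was 0.00. The groups did not overlap in 4, all with the intercropped arrays above, as in 8.29% of all tested probe sets. A probe set weakly similar to hexokinase 1 of Arabidopsis had a signal of 310.1, 542 and 346 on the intercropped arrays and 271, 167 and 185 on the monocropped arrays, a log2 difference of 0.93 with a standard error of 0.27. A probe set similar to plastid phosphoglucomutase had a log2 difference of 0.49, and it reached 50 on the 3 intercropped arrays alone, so it passed the filter through the group in which it was higher. The other 2 were 1 hexokinase probe set, at 0.33, and 1 sucrose synthase probe set, at 0.41. The same hexokinase gene has other tested probe sets with log2 differences of 0.26, -0.03 and -0.26. The transcript cluster of the sucrose synthase has others from -0.17 to 0.01. Further hexokinase and sucrose synthase probe sets overlapped between the groups. Among these, the sucrose synthase sus2 had the largest log2 difference of the list, 0.99 with a standard error of 0.33. Its intercropped array 1, at 935, lay below monocropped array 1, at 975.

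Transport across the plastid envelope was described through 6 tested probe sets. Of these, 2 were higher and 4 lower in intercropped roots, none was called, and the groups did not overlap in 3, all with the intercropped arrays below, as in 8.69% of all tested probe sets. The glucose-6-phosphate/phosphate translocator gene gpt, whose product brings hexose phosphate into plastids without photosynthesis, had 2 of the 3. Its first probe set had a signal of 809.7, 734 and 761 on the intercropped arrays and 952, 1128 and 1058 on the monocropped arrays, a log2 difference of -0.44 with a standard error of 0.11. The second had a log2 difference of -0.34 with a standard error of 0.10.

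The third was brittle1 (bt1), the ADP-glucose carrier of the endosperm plastid envelope, with a signal of 84.6, 88.3 and 94.1 on the intercropped arrays and 123, 97.3 and 98.2 on the monocropped arrays. Its log2 difference was -0.25 with a standard error of 0.16. Of the 3 probe sets for other starch and glucan turnover, 2 were tested and both were lower, with overlapping groups.

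**Figure D5:**
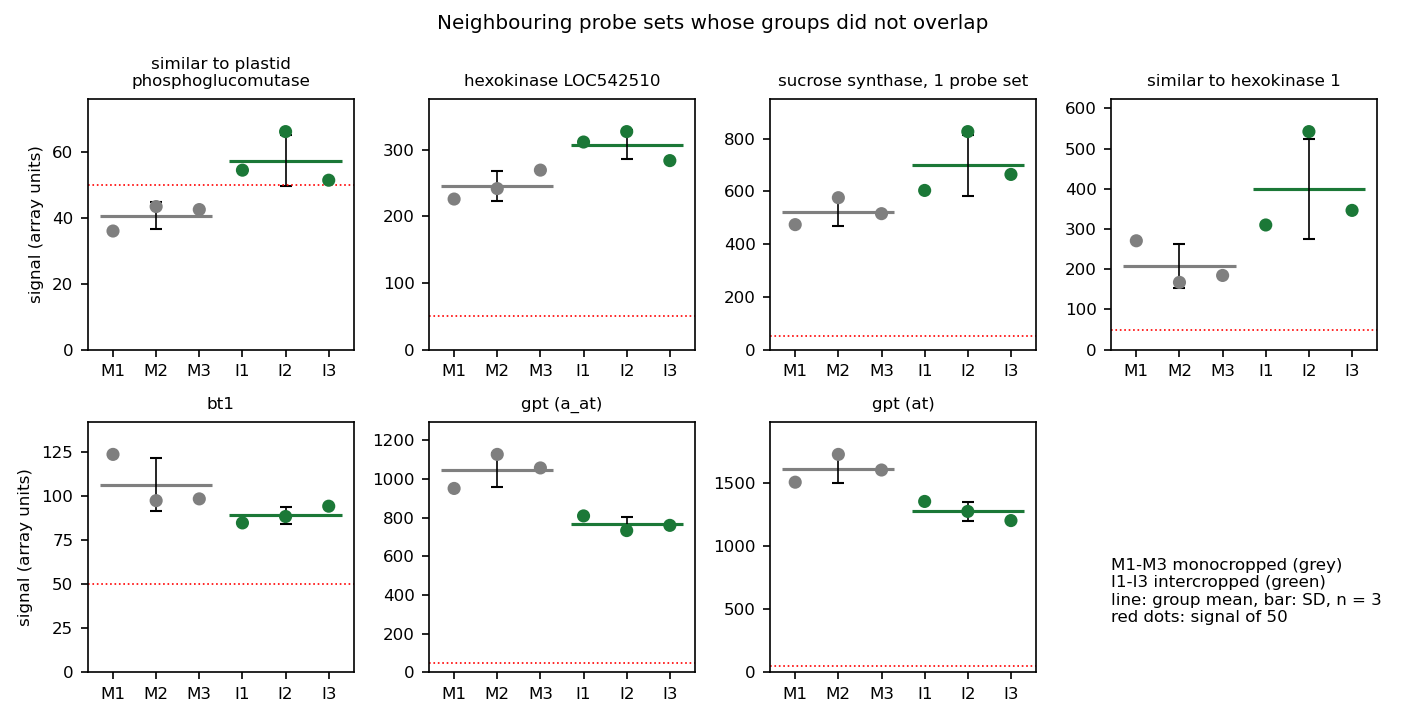
Signal (array units, linear axes from 0) of the 7 probe sets for hexose phosphate supply (top row) and plastid envelope transport (bottom row) whose groups did not overlap. Lines are group means, bars the SD over 3 arrays, and the dotted line marks 50; all 4 in the top row are higher and all 3 in the bottom row lower on the intercropped arrays.

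Markers of cell types that root samples could differ in were read beside the starch probe sets. Of 9 tested root probe sets, 1 was higher and 8 lower in intercropped roots, none was called, and the summed signal of the list was 1325 to 1894 on the intercropped and 1719 to 2596 on the monocropped arrays. The groups did not overlap in 3 of the 9, all with the intercropped arrays below, as in 8.69% of all tested probe sets, namely ys1 and 2 probe sets of nas1, a nicotianamine synthase. The 1 that was higher was the root cap periphery gene rcph2, at 393, 233 and 135 on the intercropped and 167, 121 and 76.5 on the monocropped arrays, with overlapping groups, while root cap protein 1 had a log2 difference of -0.27 and a root cap-specific glycine-rich protein of -0.82, both with overlapping groups. For dividing tissue, 9 of 33 were higher and 24 lower, with sums of 17904 to 24600.0 against 19912 to 24399. For green tissue, 9 of 20 were higher, with sums of 2218 to 3449 against 2203 to 2905. For endosperm storage proteins or their regulators, 5 of 15 were higher, with sums of 7808 to 8584 against 8550 to 8705. The intercropped arrays lay all above in 1 dividing tissue and 1 green tissue probe set, and in 8.29% of all tested. They lay all below in 3 dividing tissue probe sets and 1 endosperm probe set, and in 8.69% of all tested. Each sum covers every probe set of its list, tested or not, while the counts cover those tested. No marker was at 0, and the part of these cell types in the starch values was not tested.

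The named probe sets most like AGP2 were found by the smallest Euclidean distance between centred log2 signals over the 6 arrays, which are the same arrays that set the AGP2 pattern. The closest was GBF1, a G-box binding factor, at a distance of 0.472, with 233, 523 and 341 on the intercropped and 132, 90.1 and 115 on the monocropped arrays. Next came gln2, a glutamine synthetase, at 0.601, and mtl2, a metallothionein, at 0.640. The remaining 2 of the closest 5 resemble Arabidopsis proteins without a name. Of the starch probe sets, sbe3 ranked 13 and the S1 probe set of SSIIIb-2 ranked 36 among 3185 named probe sets, whereas GBSSIIa ranked 1185. The other starch probe sets that were ranked lay from 44 to 482. The signals were centred but not scaled, so the ranks depend also on the size of each difference between the groups.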

How the data were processed

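Root RNA of 3 intercropped and 3 monocropped maize samples was hybridised to single-colour arrays, and groups were taken from the treatment labels. The deposited series table holds linear intensities, 1 for each probe set on each array, that the authors had summarised and scaled. The submitters' processing notes name GCOS 1.4, and how it summarised probes, or to what target it scaled, is not given in the sources used here. Scaled values cannot show a shift shared by all transcripts. The authors' filtered table holds log2 values, which equalled log2 of the deposited intensities within 3.6e-15. The authors' deposited SAM table gives, per the file headers, a score, a log2 difference, a fold change as a linear ratio and a q-value in percent. Its 6 columns of per-array values were not used.

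Here 179 control probe sets were left out, values under 1 were raised to 1, and log2 values were used with no added normalization. Probe sets at 50 or more on at least 3 of 6 arrays were tested with limma 3.58.1 in R 4.3.3 (lmFit, eBayes with trend=TRUE, two-sided, Benjamini-Hochberg over all 13116). The fit was tested on simulated data whose changes were all larger than the log2 difference of any member. That test says nothing about changes of the size reported here. Standard errors are limma's moderated ones. The number of arrays limits the precision.

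Members and lists were chosen with earlier results of these data known. All members may be named. The rule gave array values to members with a named symbol, with groups that do not overlap or with a second probe set, and they are given for the other members too. It also named the 5 probe sets most like AGP2 and, in each neighbouring list, up to 4 with groups that do not overlap. The root markers named and the genes sus2, agpsl1, AGPLS3, iso3 and zpu1 were picked outside this rule, after the tables had been opened. Of the 14 members, 11 matched a gene ID in the RefSeq gene table, used for names alone. The replicate numbers are from the titles. Deviations of same-numbered arrays correlated at 0.268, -0.0692 and -0.00411, so the numbers were not taken to pair the samples.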

Additional observations from a re-analysis of the deposited data

How the results depend on the processing

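The log2 difference of each of the 14 members was recomputed under the alternatives (quantile normalization, equal array medians, other filters, log2 of the signal plus 32, another variance prior, a replicate block and each array left out), and set beside the authors' deposited SAM table. Of 206 values, 126 differed from the reported ones, each by less than 1 SD between arrays. With so few arrays per group, leaving 1 array out cannot move a log2 difference by as much as 1 SD. For the values with 1 array left out, staying under 1 SD therefore says nothing about stability. Of the 126, 6 were below 0, those of GBSSIIa and of the second probe set of the Sbe2a transcript cluster with 1 array left out. The number of members higher in intercropped roots was 12 to 14 with 1 array left out, the number lower 0 to 2, and the members' median log2 difference 0.33 to 0.52. A filter at a mean signal of 100 left 10 members and 1 probe set per gene or transcript cluster left 12, all of them higher. No member was called under any alternative. Over the whole array, limma called 0 probe sets in the reported fit, 1 with log2 of the signal plus 32, and 0 to 34 with 1 array left out, the 34 without intercropped array 1. The cause was not tested. With the replicate block 0 were called, 1515 had an unadjusted p under 0.05, and the members' median was 0.45, as it must be, since a block cannot change a difference in a balanced design. The rest of the 206 equalled the reported values by construction (filters, variance prior, block, SAM table) and say nothing about stability. The standard errors of the members' log2 differences ran from 0.14 to 0.32, the highest for GBSSIIa.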
